A study of Schizosaccharomyces pombe with 2 samples.

Results

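This account covers the introns of 3 fission yeast genes, asn1, put2 (SPBC24C6.04) and amk2, of the 1081 genes with annotated introns listed in lariat sequencing of *Schizosaccharomyces pombe*. The genes were chosen by their branch reads, that is reads across the branch point, since an intron of each stood among the 10 with the most. Those branch reads therefore describe the genes and are not a finding about them. Every row of the 3 genes was used, which gave 4 introns with peak reads, namely intron 1 of asn1, intron 1 of put2 and introns 2 and 3 of amk2, out of 1292 distinct annotated introns. No row of the 222 introns outside the authors' annotation, and no row of the 23 skipped exons, belonged to any of them.

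The strain was 972 h- with dbr1 deleted, so every value comes from delta-dbr1 cells. Total RNA of 41 growth and treatment conditions was pooled, run on two-dimensional gels, and the arc of circular RNA was cut out and sequenced. There was 1 library from a short gel run, with a second dimension of 15% acrylamide, and 1 from a long run of 20% acrylamide. The tables that hold the 4 introns carry the name of the short run. The pooled design gives no condition to compare and no replicate, so no test was made, and every interval covers counting error only. The peak table held 9296300 reads over annotated introns and the branch table held 21802 branch reads over 817 introns. These totals are sums over listed introns and not library depths.

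When an intron is removed, its first base is joined to an adenosine near its end, the branch point, and the intron leaves as a lariat, a circle with a tail. Dbr1 normally cuts that bond so that the intron can be degraded, and without Dbr1 the lariat stays. A read over the intron (a peak read) reports the circle, and a read that crosses the joint (a branch read) shows at which base the circle was closed. The genes belong to nitrogen and energy metabolism. The asn1 gene encodes asparagine synthetase, which makes asparagine from aspartate. The put2 gene encodes delta-1-pyrroline-5-carboxylate dehydrogenase, which turns an intermediate of proline breakdown into glutamate. The amk2 gene encodes the beta subunit of AMP-activated protein kinase, the energy sensor that in fission yeast has Ssp2 as its catalytic and Cbs2 as its gamma subunit.

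The last 30 bases of each listed intron are shown first, because they hold the branch letters and the splice site on which the comparison of the 4 introns turns. They were read from the RefSeq ASM294v3 assembly at the deposited positions, on which all 1292 annotated introns ran from GT to AG. Which build the deposited positions refer to is not stated. Capitals mark the 7 leading branch letters of the authors' table, and the last letter is the last base of the intron. The windows were chr2:735354-735383 on the plus strand for asn1, chr2:2325204-2325233 on the plus strand for put2, and chr3:2208292-2208321 and chr3:2208491-2208520, both on the minus strand, for introns 3 and 2 of amk2.
asn1 intron 1: tattctttgttTAGTAACcataaattttag
put2 intron 1: ttttatttatgcgaTATTAATacttattag
amk2 intron 3: tttaagctTGCTAACtttttcgccaaatag
amk2 intron 2: aattgacaatttaattacttacacatatag
The first 3 hold a branch site that the reads crossed. The intron shown last has no row in the branch table, so none of its letters are in capitals.

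The 4 introns lay in different parts of their genes. Intron 1 of asn1 (chromosome 2, 735289 to 735383, plus strand, 95 nt) and intron 1 of put2 (chromosome 2, 2325119 to 2325233, plus strand, 115 nt) lay before the start codon, in the 5′ untranslated region of the RefSeq gene models. Introns 3 (chromosome 3, 2208292 to 2208387, minus strand, 96 nt) and 2 (2208491 to 2208660, 170 nt) of amk2 lay between coding exons. RefSeq gives amk2 4 introns, and the other two, intron 1 of 53 nt and intron 4 of 48 nt, were not listed. Of the 2991 RefSeq mRNA introns under 60 nt, 4 were listed. The put2 intron and both amk2 introns equalled RefSeq introns at both ends.

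**Figure D1:**
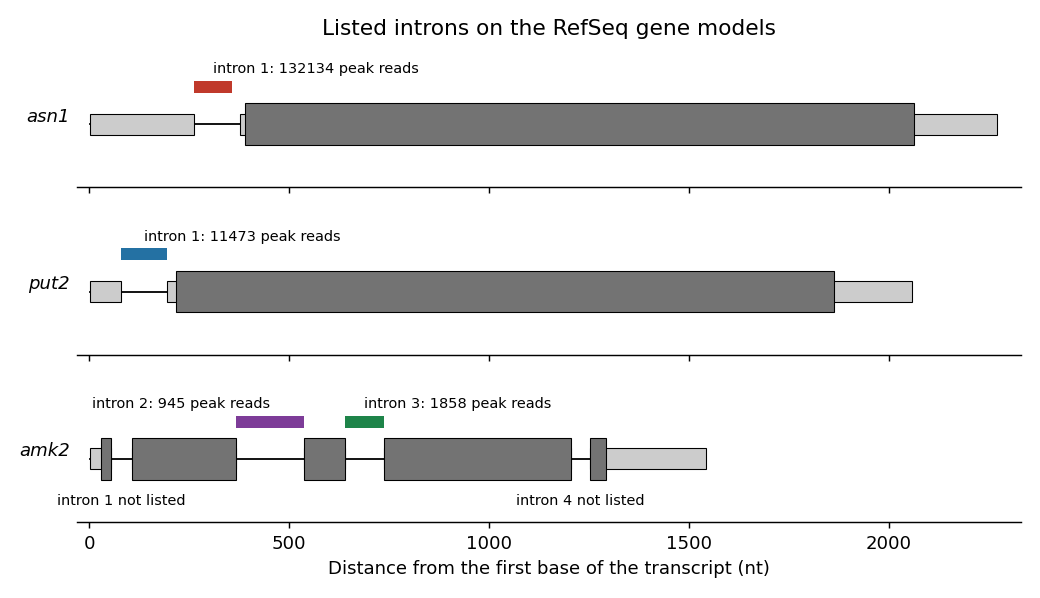
Exons (light boxes), coding sequence (dark boxes) and listed introns (coloured bars with their peak reads) of asn1, put2 and amk2, by distance from the first base of the transcript in nt. The asn1 and put2 introns lie before the coding sequence, the asn1 bar ends before the RefSeq exon begins, and introns 1 and 4 of amk2 are not listed.

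The asn1 intron was the exception. Its deposited end lay 19 nt before the start of the RefSeq exon, so that RefSeq has an intron of 114 nt from the same 5′ splice site. The deposited intron ended in AG, whereas the RefSeq interval ended in TT. In all, 28 of 5275 RefSeq mRNA introns (0.531%) did not end in AG. The 19 bases between these ends held 0 further AG. Among the 33 annotated introns of the peak table that equalled no RefSeq intron, 2 shared their 5′ end with one, and asn1 was the 1 case in which the RefSeq intron did not end in AG. The leading branch letters lay 12 nt before the deposited end and 31 nt before the RefSeq exon.

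Peak reads put asn1 far above the other genes. Intron 1 of asn1 had 132134 peak reads (95% Poisson interval 131422 to 132848), which was rank 15 of 1292 introns. Intron 1 of put2 had 11473 peak reads (11264 to 11685), at rank 123. Intron 3 of amk2 had 1858 (1774 to 1944), at rank 410, and intron 2 of amk2 had 945 (886 to 1007), at rank 516. All 4 lay above the median annotated intron, which had 438 peak reads (quartiles 52 and 2947). Most introns with 100 branch reads or more lay above it too, so the choice bears on the places of the introns that have branch reads.

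The order was the same per nt. Per nt of intron, asn1 had 1391 peak reads, put2 99.8, amk2 intron 3 19.4 and amk2 intron 2 5.56, at ranks 10, 107, 347 and 575 of 1292. The asn1 level per nt was 13.9-fold that of put2 and 71.9-fold that of amk2 intron 3. Within the 312 introns of 80 to 99 nt, asn1, classed by its deposited length of 95 nt, had the most peak reads. The class median was 200, and amk2 intron 3 was at rank 68. By its RefSeq length of 114 nt, asn1 would fall in the next class, where intron 1 of rpp102 had 716954. The put2 intron was at rank 59 of 464 introns of at least 100 and under 150 nt (class median 1304), and amk2 intron 2 was at rank 170 of 251 introns of 150 to 200 nt (class median 2498), so it lay below the median of its own class. The counts carry no correction for how well circles of each length were recovered from the gel.

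The asn1 and put2 introns were set beside other introns of the same place in a gene. The 132134 peak reads of asn1 and the 11473 of put2 compared with a median of 114 over the 34 listed introns that equalled a RefSeq intron in a 5′ untranslated region. The asn1 intron is not among the 34, as its end differs from RefSeq, but put2 is. Both stood high beside a group whose median lay below the 458 of the 1211 introns within coding sequence. The choice by branch reads bears on these peak reads as well, so their place is a description.

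Intron 1 of asn1 had 1230 branch reads (95% Poisson interval 1162 to 1301), intron 1 of put2 had 452 (411 to 496) and intron 3 of amk2 had 323 (289 to 360), against a median of 4 over 817 introns (quartiles 2 and 15). They were at ranks 3, 6 and 10, which is how the genes were chosen. The choice holds these branch reads to a narrow range. It does not set the peak reads directly, but most introns with 100 branch reads or more had more peak reads than the median annotated intron. The folds that follow are therefore a description only. The asn1 intron had 11.5-fold the peak reads of put2 but 2.72-fold its branch reads, and 71.1-fold the peak reads of amk2 intron 3 but 3.81-fold its branch reads. Next to asn1 in that ranking stood intron 1 of rpl31 with 1302 and intron 1 of rps13 with 849, both ribosomal protein genes. Above put2 stood intron 1 of rpl3801, another ribosomal protein gene, with 483. Next to amk2 stood intron 1 of rpp102, a ribosomal stalk protein gene, with 336, and, just outside the first 10, intron 3 of grx2, a glutaredoxin gene, with 304. The 4 listed introns held 1.57% of all peak reads.

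Branch reads per 1000 peak reads set both counts of an intron in a single value. The choice by branch reads sets the order of the 3 introns in this ratio, opposite to that of their peak reads, and raises their ranks, so the values are a description. The ratio was 174 in amk2 intron 3 (95% interval 154 to 196), 39.4 in put2 (35.8 to 43.3) and 9.31 in asn1 (8.79 to 9.85), so that amk2 intron 3 stood 18.7-fold above asn1 and 4.41-fold above put2. Over the 756 introns with both values the median was 4.68 (quartiles 1.16 and 19). By this ratio amk2 intron 3 was at rank 45, put2 at rank 118 and asn1 at rank 285 of the 756. Restricted to the 43 introns that had 100 branch reads or more, with a median ratio of 17, the ranks were 9 for amk2 intron 3, 14 for put2 and 25 for asn1. Branch reads are not a part of peak reads in every intron, since 5 introns had more of the first than of the second, so the ratio is not a share.

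**Figure D2:**
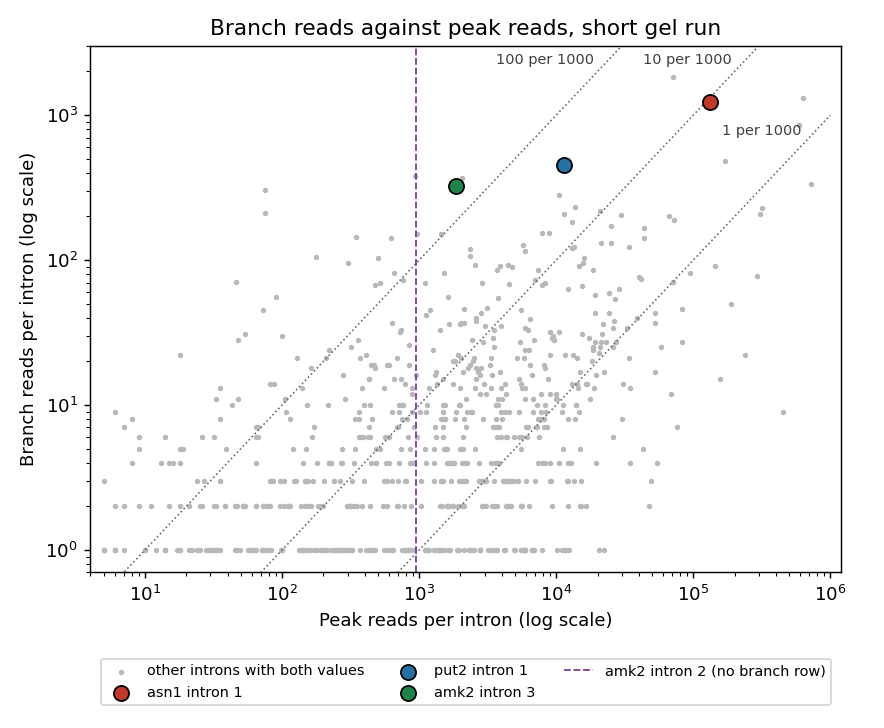
Branch reads against peak reads per intron in the short gel run, both on log scales, for the 756 introns with both values; dotted lines mark 1, 10 and 100 branch reads per 1000 peak reads. From amk2 intron 3 (1858, 323) through put2 (11473, 452) to asn1 (132134, 1230) the members cross from above 100 to below 10 per 1000, and the dashed line marks the 945 peak reads of amk2 intron 2, which has no branch row.

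The ratio differed between length classes, in no single direction, so each intron was set beside its own class. The class median was 58.8 under 80 nt, 13.6 at 80 to 99 nt, 3.07 from 100 to under 150 nt, 1.09 at 150 to 200 nt and 24.2 in the 14 introns over 200 nt. The ratio of 174 in amk2 intron 3 and that of 9.31 in asn1 compared with a median of 13.6 in introns of 80 to 99 nt, where they were at ranks 29 and 128 of 218. The 39.4 of put2 compared with a median of 3.07 in introns of at least 100 and under 150 nt, where it was at rank 31 of 333. By deposited length, the asn1 ratio was thus below its class median, while the put2 and amk2 intron 3 ratios were above theirs. By its RefSeq length of 114 nt, asn1 would fall in the class with a median of 3.07, and 9.31 lies above that. The class of amk2 intron 2, with no ratio of its own, was that of 150 to 200 nt. The part of length in these ratios was not tested.

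**Figure D3:**
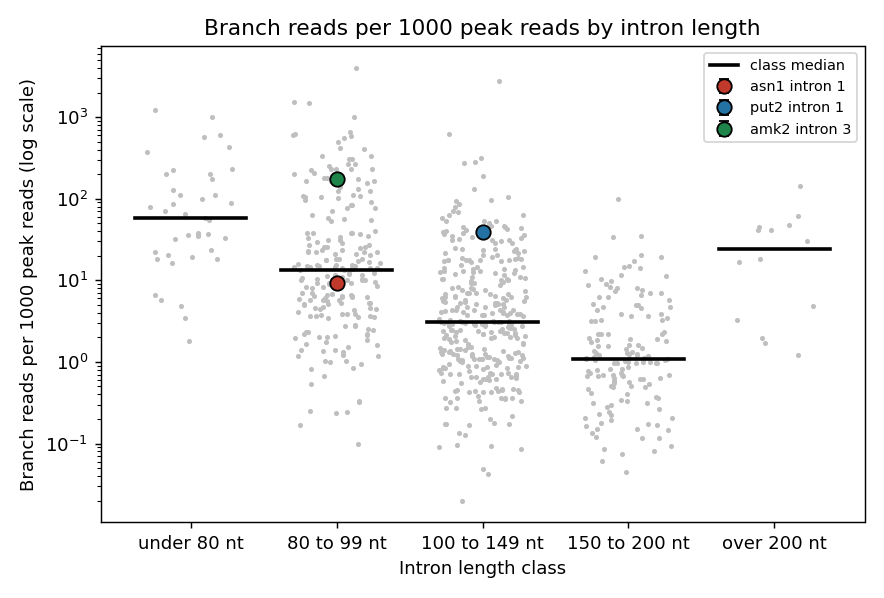
Branch reads per 1000 peak reads (log scale) by intron length class in nt, 1 point per intron with both values, black bars for class medians and 95% counting intervals on the coloured points, which are mostly hidden by the points. The amk2 intron 3 point (174) and the put2 point (39.4) lie above the medians of their classes (13.6 and 3.07). The asn1 point (9.31), placed by deposited length, lies below the median of its class (13.6).

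Introns of like peak reads give another view of the same rows, again with branch reads that the choice made high. The 1230 branch reads of asn1 compared with a median of 60.5 in the 14 introns with a branch row among the 17 within 2-fold of its peak reads, and 1 of these had more. The 452 of put2 compared with a median of 12 and a highest value of 281 in 141 of 155 such introns. The 323 of amk2 intron 3 compared with a median of 6 in 183 of 236 such introns, of which 2 had more. The nearest introns in log10 peak reads and log10 branch reads together, over the 756 introns, were intron 1 of rps2402 for asn1 (70772 peak and 1822 branch reads, log10 distance 0.32), intron 3 of arc5 for put2 (10401 and 281, distance 0.211) and intron 1 of rps1201 for amk2 intron 3 (2067 and 371, distance 0.0759). After these came rpl3801 and rps13 for asn1, and rsd1 and glo2 (SPAC824.07) for put2. Ribosomal protein genes gave all 3 neighbours of asn1 and the nearest one of amk2 intron 3, while arc5 encodes a subunit of the Arp2/3 complex.

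Intron 2 of amk2 had 945 peak reads and no branch row, in the same gene as intron 3. Intron 3 had 1.97-fold its peak reads, or 3.48-fold per nt. Of the 221 introns within 2-fold of 945 peak reads, 155 had a branch row (70.1%), with a median of 5 branch reads, and of the 251 introns of 150 to 200 nt, 150 had one (59.8%). A missing row was thus common at that level and length. A split of this kind within a gene was common too, since 100 of 181 genes with 2 or more listed introns had branch rows for some of these introns and not for others. The RefSeq lncRNA SPNCRNA.7671, on the plus strand, covered all 170 nt of intron 2 and 0 nt of intron 3. Whether strand was used in counting is not stated, so reads from the amk2 intron and from that RNA cannot be told apart. The antisense lncRNAs that RefSeq has at asn1 and put2 covered 0 nt of the listed introns.

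The letters of intron 2 were scanned for any of the 87 leading branch sequences of the table. A single match was found in its 170 nt, TACTTAC, which lay 8 nt from the end and led in 2 other introns with 20 branch reads in all. Of all 1292 introns, 1263 (97.8%) held one of the 87 sequences at a distance of 3 to 20 nt, so a match of this kind says little. The scan used the intron strand alone and all overlapping matches.

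The branch letters of the 3 introns all departed from TACTAAC, the most frequent leading sequence. It was found in 136 of 817 introns, so most introns departed from it as well. With positions counted from 1 at the 5′ letter, asn1 (TAGTAAC) carried C3G, amk2 intron 3 (TGCTAAC) carried A2G, and put2 (TATTAAT) carried C3T and C7T. Position 6 is read as the branch base in what follows, and it held A in each of the 3, as in all 817 introns. TGCTAAC of amk2 intron 3 was a common form, leading in 67 introns (8.2%). TATTAAT of put2 led in 16 (1.96%). TAGTAAC of asn1 led in 2 (0.245%), the second being intron 1 of pha2 with 2 branch reads.

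G at position 3 was rare in any form. It occurred in 4 of 817 leading sequences (0.49%), against 671 with C and 137 with T, and the 3 introns other than asn1 had 2 branch reads each. Of these 3, pha2 had the letters of asn1. The others had ATGCTAA, which contains TGCTAA, so their G at position 3 may not be the same letter of the site. The 1230 branch reads of asn1 thus stood at letters that hardly any other intron used. The choice by branch reads sets asn1 high among introns of any letters, so its place among these 4 is a description. Of the 66 other introns with the letters of amk2 intron 3, intron 2 of pup2, a proteasome subunit gene, had the most branch reads, with 172.

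The 5′ splice site of asn1 was rare as well. Its first 6 bases were GTAACT, which only 3 of 1292 introns had (0.232%), the others being intron 3 of arc5 with 10401 peak and 281 branch reads and intron 3 of rex2 with 35 peak reads and no branch row. Intron 1 of put2 and intron 2 of amk2 began with GTAAGT, the most frequent form (483 introns, 37.4%), and intron 3 of amk2 with GTATGA (59 introns, 4.57%). All 4 introns ended in TAG, as did 934 introns (72.3%). GC content was 28.4% in asn1, 29.6% in put2, 34.4% in amk2 intron 3 and 31.2% in amk2 intron 2, against a median of 30.2% over all annotated introns.

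The distance to the 3′ splice site differed among the 3 introns. As listed, it counts the bases between the 7 letters and the intron end, and it was 12 nt in asn1, 9 nt in put2 and 15 nt in amk2 intron 3, against a median of 11 nt over 817 introns. Of the 817 introns, 93 (11.4%) shared the distance of asn1, 121 (14.8%) that of put2 and 36 (4.41%) that of amk2 intron 3. The distance of amk2 intron 3 was among the longer ones, with 701 introns below it. Counted from the branch base, the tail was 13 nt in asn1, 10 nt in put2 and 16 nt in amk2 intron 3, and the closed loop was 82, 105 and 80 nt in that order, against a median of 101 nt (quartiles 81 and 129). In all 3 introns, the AG at the end was the first AG after the branch letters, as in 641 of 756 introns (84.8%).

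Nearly all branch reads of each intron lay at 1 position. In asn1, 1218 of 1230 reads lay at TAGTAAC (99%, exact binomial 95% interval 98.3 to 99.5). In put2, 446 of 452 lay at TATTAAT (98.7%, 97.1 to 99.5), and in amk2 intron 3, 318 of 323 lay at TGCTAAC (98.5%, 96.4 to 99.5). The shares did not differ beyond their counting intervals.

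The remaining reads followed a shared pattern. Each intron had a second position exactly 1 nt further from the splice site, with 12 reads at TTAGTAA in asn1 (0.976%), 3 at ATATTAA in put2 (0.664%) and 5 at TTGCTAA in amk2 intron 3 (1.55%). There, position 6 falls on the A at position 5 of the leading letters. The put2 intron had a further position, TACTTAT, listed 3 nt from the splice site, with another 3 reads. The offset of 1 nt was not particular to these genes. Of the 194 listed positions that were not leading, 117 (60.3%) lay there, with 281 of 435 reads. Of the 42 introns with at least 100 branch reads and A at position 5, 36 had such a position. Over all 42, the share ran from 0% to 4.58%, with a median of 1.08%. The shares of asn1, put2 and amk2 intron 3 lay within that range. What gave rise to these reads was not tested.

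**Figure D4:**
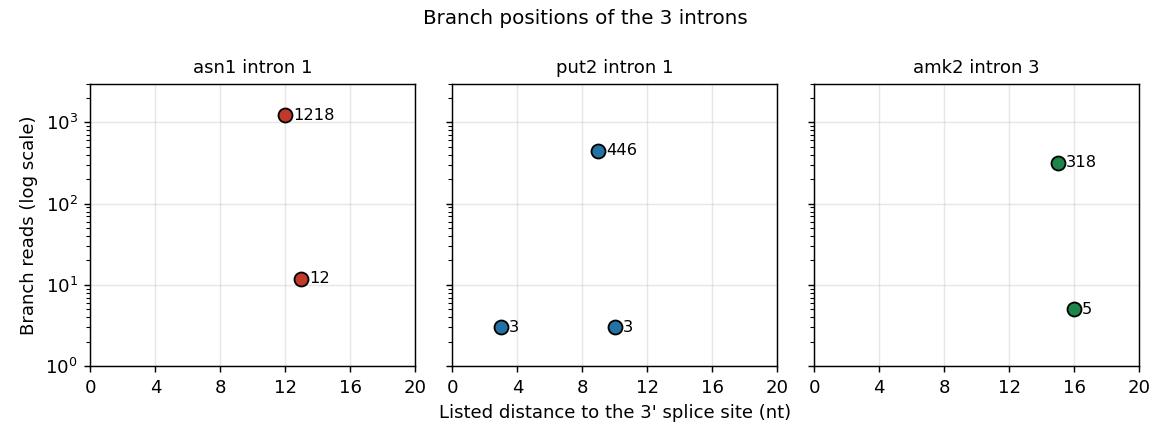
Branch reads (log scale) by listed distance to the 3′ splice site in nt for asn1 intron 1, put2 intron 1 and amk2 intron 3, with the count beside each point. The leading points hold 1218, 446 and 318 reads, and each has a point 1 nt further out with 12, 3 and 5 reads.

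Other genes of the same pathways had few or no listed introns. Of 7 genes of asparagine, aspartate, glutamine and glutamate metabolism, asn1 was the 1 gene with an intron in RefSeq. Of 15 genes of proline, ornithine and arginine metabolism, 3 had introns, and all 4 of those introns were listed, with a median of 670.5 peak reads, against 438 over the table. Beside put2 these were intron 1 of pro2, a gene of proline synthesis, with 1293 peak and 4 branch reads, intron 2 of pro2 with 13 peak reads, and intron 1 of arg1, a gene of arginine synthesis, with 48 peak reads. Intron 1 of pro2 carried the TGCTAAC letters of amk2 intron 3, at a distance of 10 nt.

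Of the 6 genes around AMP-activated kinase, 5 had introns, 17 in all, and 5 introns of 3 genes were listed. Their median of 945 peak reads is the count of amk2 intron 2, and 2 of the 5 were introns of amk2. The catalytic subunit gene ssp2 had 14 peak reads over intron 2 of 208 nt, and its introns of 52 and 50 nt were not listed. The gamma subunit gene cbs2 has 4 introns of 47 to 63 nt, and none was listed. The kinase gene ckk2 (ppk34) had 50 peak reads over intron 1 and 1702 over intron 2, the second with 3 branch reads at CACTAAC. Intron 1 of ppk9 had 2 branch reads at GGCTAAC and no peak row. Intron 3 of amk2, of 96 nt, and intron 2 of ckk2, of 97 nt, thus had similar peak reads, 1858 in amk2 and 1702 in ckk2, while their branch reads were 323 in amk2, the count it was chosen by, and 3 in ckk2.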

How the data were processed

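Circular RNA of 1 pooled sample per gel run was sequenced. Bowtie 0.12.3 and SAMtools are named, with no role, per the submitters' processing notes; the peak caller, thresholds, annotation and genome build are not stated. The authors deposited raw read counts for each intron peak, all whole numbers of 5 or more, per the file headers. Their branch table lists letters, distance and reads per position. The 22 repeated lines were kept once. Introns were assigned to RefSeq ASM294v3 genes by exact position, otherwise by name. Of introns whose name matched no gene, 21 were placed in the 1 gene of their strand that held them, and 2 had no gene match at that step. Introns were then joined to branch rows by gene and intron number, and in all 756 joined the leading letters lay at the listed distance. Intervals at 95% were exact Poisson for counts, exact binomial (Clopper-Pearson) for shares and binomial for ratios of counts. They cover counting error only, since PCR copies are not independent. With 1 library there was no test. The genes and lists were chosen with earlier results of these data known. Named introns were those of the 3 genes, the listed pathway introns, the 3 nearest introns by reads, the neighbours in rank and those sharing letters; rps2402, arc5, rex2, pha2 and grx2 follow from these or were chosen after their values were seen. Software was matplotlib 3.10.9, Biopython 1.88, scipy 1.17.1, pandas 2.3.3 and numpy 2.4.6 under Python 3.11.15. The interval code was tested on simulated independent counts without PCR copies, which checks the code and not its fit to these reads. Alternatives changed repeated lines, division by length, length class, read minimum and branch position. The 2-fold window, the minimum of 100 branch reads, the letter scan and the counts of splice site letters were chosen after the values were seen. An intron that the rule for named introns takes is not reported here.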

Additional observations from a re-analysis of the deposited data

How the results depend on the processing

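No paired analysis was possible because each gel run gave 1 library, and leaving out a replicate could not be run. Branch reads, leading shares, distances and ratios with the leading position alone stayed within their counting intervals, or within 1 nt. So did the places by peak reads with every line kept, and those by branch reads over introns with a peak row alone. Other places in the table moved more. The percentage of introns with more peak reads, 1.08% for asn1, 9.44% for put2, 31.7% for amk2 intron 3 and 39.9% for amk2 intron 2, became 0%, 12.5%, 21.5% and 67.3% within the own length class, and 26.8% and 44.4% for amk2 introns 3 and 2 with reads divided by length. The percentage with a higher ratio of branch to peak reads was 37.6% for asn1, 15.5% for put2 and 5.82% for amk2 intron 3. With at least 20 branch reads it was 47.1%, 21.5% and 9.3%, with at least 100 peak reads 26.1%, 6.26% and 1.1%, and within the own length class 58.3%, 9.01% and 12.8%. These settings change which introns are ranked, by construction. By the percentage with a higher ratio, put2 came before amk2 intron 3 within length classes, and after it under the other settings named here. The classes differ in size, and the ranks within them were 31 of 333 for put2 and 29 of 218 for amk2 intron 3. The class of asn1 follows its deposited length, and its RefSeq length would put it in another. The lowest listed peak count of 5 sets the depth limit of the peak table.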
